A study of Rattus norvegicus with 8 samples.

Results

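The genes described here are those of peroxisome division and membrane assembly: Pex11a, Pex11g, Fis1, Mff, Dnm1l, Pex3, Pex16, Pex19 and Pex5. They were taken as all array probes whose transcript accession belongs to 1 of these 9 symbols in the RefSeq gene table, which gave 13 of the 30367 probes. Every one of the 9 genes had at least 1 probe, with 4 for Pex19 and 2 for Pex5. The probes represent 9 of the 15204 genes and features tested.

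Liver messenger RNA was compared between 4 adult male Sprague-Dawley rats fed ad libitum for 28 days a diet with the potassium salt of perfluorooctanesulfonate (PFOS, a fluorinated surfactant), given as 50 mg per kg of diet, and 4 rats of the same strain, sex and age class on control diet. Each rat had its own two-colour Agilent array, on which its liver RNA carried Cy5 and a commercial pool of rat RNA, the same on every array, carried Cy3. The main measure is the log2 ratio of Cy5 over Cy3, in which 1 unit is a doubling. The Cy5 and Cy3 signals were also compared each on its own. No array had the dyes exchanged, so a ratio against the pool can hold dye bias, while a difference between PFOS and control livers is between arrays labelled alike.

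A peroxisome is an organelle bounded by a single membrane that oxidizes very long and branched fatty acids and makes and breaks down hydrogen peroxide. It multiplies by growth and division: PEX11 proteins bend and elongate the membrane, and FIS1 and MFF bring the GTPase encoded by Dnm1l to it, which constricts the tubule until it separates. Mitochondria divide with the same FIS1, MFF and dynamin-like protein. New membrane proteins are escorted by PEX19 to PEX3, with PEX16 acting early in that assembly, and PEX5 then carries enzymes into the matrix. Rodent liver is known for the growth of its peroxisome population under ligands of the nuclear receptor PPARα, and Pex11a is known in rodents as a gene that responds to that receptor.

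A sequence before a transcript start is shown for Pex11a and for Pex11g. These are the family members with the largest and next largest change among the 9 genes, and only the first passed the test. Both stretches are RefSeq sequence of the rat assembly GRCr8, read 5′ to 3′ on the strand of the gene. Each ends at the base before the transcript start. The first is chr1:143096492-143096741 and the second chr12:6310387-6310636, both on the minus strand. The Pex11a stretch lies directly before the annotated gene, chr1:143089410-143096491. The Pex11g stretch lies inside the annotated gene, chr12:6301461-6329741, so its transcript start is an internal one and the 2 stretches are unlike in this. Capitals mark matches, on either strand, to 5 motifs: AGGTCA, the nuclear receptor half-site; AGGTCANAGGTCA, its direct repeat with 1 base between; GGGCGG, a GC box; CCAAT; and CCGGAAGT, a site of ETS factors.
Pex11a: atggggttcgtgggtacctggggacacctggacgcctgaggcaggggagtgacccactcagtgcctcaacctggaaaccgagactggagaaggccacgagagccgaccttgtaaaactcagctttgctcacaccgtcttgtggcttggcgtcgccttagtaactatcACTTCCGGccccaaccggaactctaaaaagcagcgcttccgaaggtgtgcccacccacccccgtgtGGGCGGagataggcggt
Pex11g: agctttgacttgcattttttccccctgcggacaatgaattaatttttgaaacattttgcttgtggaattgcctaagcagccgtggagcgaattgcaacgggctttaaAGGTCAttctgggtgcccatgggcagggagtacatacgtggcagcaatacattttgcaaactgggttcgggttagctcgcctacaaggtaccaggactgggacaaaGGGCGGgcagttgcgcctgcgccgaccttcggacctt
The Pex11a stretch held 1 GC box, 17 to 12 bases before the start, and 1 CCGGAAGT on the other strand, 83 to 76 bases before it. The Pex11g stretch held 1 half-site, 143 to 138 bases before the start, and 1 GC box, 37 to 32 bases before it. No 2 of these matches overlapped. Over windows of 300 bases, which add the first 50 transcribed bases, the half-site was in 16.2% of all 33469 windows of the table and in those of 1 of the 9 genes, Pex11g. The direct repeat was in 0.0538% of windows and in none of the 9 genes. A GC box was in 33.1% of windows and 7 of 9 genes, CCAAT in 37.5% and 5 of 9, and CCGGAAGT in 3.81% and 2 of 9, Pex11a and Fis1. The 9 genes had 10 windows, as Fis1 had more than 1, and a gene was counted if any of its windows matched. The CCAAT and CCGGAAGT matches of Fis1 lay in the same window. A match describes letters in the window, and a window without one says nothing about a factor that may bind elsewhere.

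Across the arrays, log2 ratios correlated at 0.973 to 0.982 among PFOS arrays, 0.980 to 0.984 among control arrays and 0.959 to 0.974 between the groups. The median Cy5 signal of a spot was 116 to 160 units on PFOS arrays and 122 to 159 units on control arrays, over a local background of 71 to 75 units. All 13 probes of the 9 genes were well above background in both colours on all 8 arrays, so all passed the filter on dim probes. All 8 hepatocyte markers passed that filter too, with mean log2 Cy5 values of 8.11 for Hnf4a to 18.3 for Ttr in PFOS livers and 7.88 to 18.2 for the same genes in control livers. The 8 arrays lie in 2 rows of 1 slide, each row with 2 arrays of each group: PFOS 1 and 2 and control 1 and 2 in the first, and PFOS 3 and 4 and control 3 and 4 in the second. With 4 arrays a group, the number of arrays limits the precision of every value.

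Of the 9 genes, 1 rose in PFOS livers and none fell: Pex11a, by limma with Benjamini-Hochberg adjustment over all 15204 features at an adjusted p under 0.05. The same test called 3.96% of all features in either direction, 1.82% as higher and 2.14% as lower in PFOS livers. The 9 changes had a median of 0.06 on the log2 scale and 7 of them were above 0, beside a median of -0.01 and 47.7% above 0 over all features. In Cy5 alone the count was again 1 of 9, Pex11a, where 4.68% of all features were called, 2.22% as higher and 2.47% as lower. At an unadjusted p under 0.05 the counts of the 9 genes were 1 in the ratio, 2 in Cy5 (Pex11a and Pex11g) and 0 in Cy3, where 19.9%, 20.9% and 3.62% of all features were, so these counts were near the background. At the level of probes, 1 of 13 was called in the ratio, where 3.74% of all 16952 kept probes were, and 1 of 13 in Cy5, where 4.58% were. The groups did not overlap for 2 of the 9 genes in the ratio, Pex11a and Fis1, where they did not overlap for 12.8% of all features.

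Pex11a encodes the PEX11 form that is abundant in liver and that elongates the peroxisomal membrane before division. Its log2 ratios were 4.44, 4.77, 4.82 and 3.94 in PFOS livers 1 to 4, against 2.67, 2.80, 3.12 and 3.34 in control livers 1 to 4. Every PFOS liver lay above every control liver, with 0.61 between the lowest PFOS value and the highest control value. The means were 4.49 ± 0.40 in PFOS livers and 2.98 ± 0.30 in control livers (SD, n = 4 each). The change was 1.51 (SE 0.21) on the log2 scale, or 2.85-fold (95% confidence interval 2.04 to 3.97), with a limma adjusted p of 0.00596. By size of rise it stood 55th and by p 124th among the 15204 features. The probe, A_64_P027868 on transcript NM_053487, is printed once on each array, so each of these values is 1 spot.

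**Figure D1:**
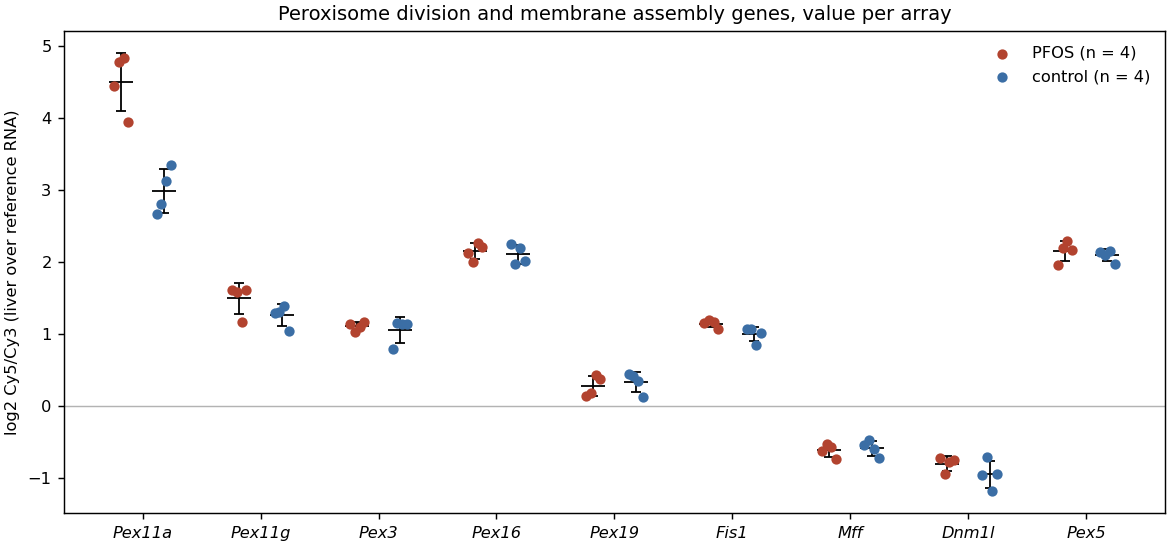
Log2 ratio of liver over reference RNA (y axis) for the 9 genes, 1 point per array, PFOS (red) left of control (blue), with the mean as a bar and the SD as whiskers (n = 4 each). The 4 PFOS points of Pex11a lie between 3.94 and 4.82, above its control points at 2.67 to 3.34, while the points of the other genes lie close together in both groups.

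The liver channel alone gave a like difference for Pex11a. Its log2 Cy5 values were 13.37, 13.35, 13.79 and 12.82 in PFOS livers and 11.57, 11.71, 12.02 and 12.28 in control livers. The groups again did not overlap, as for 13.4% of all features in Cy5, and no other of the 9 genes was free of overlap there. The Cy5 change was 1.43 (SE 0.21), or 2.70-fold (95% confidence interval 1.94 to 3.76), with a limma adjusted p of 0.00562. In the reference channel the change was -0.14 (SE 0.08, adjusted p = 0.999), with 1 PFOS array, PFOS 2, at 10.38 below the other PFOS arrays at 10.71 to 10.77. Among all features 0.0789% were called in Cy3, and none of the 9 genes was. In bulk liver, more RNA of a gene per cell and more cells that express it cannot be told apart.

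The Pex11a change was also computed within each slide row. In the row with PFOS 1 and 2 and control 1 and 2 the change was 1.87 in the ratio and 1.70 in Cy5 (limma adjusted p = 0.0166 and 0.00783). In the row with PFOS 3 and 4 and control 3 and 4 it was 1.15 and 1.16, and neither passed the test (adjusted p = 0.293 and 0.316). In that second row PFOS 4 had the lowest PFOS value and control 4 the highest control value, and still the groups did not overlap. Whether the rows differ was not tested.

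Markers of the cell types of liver were read beside these values. In the ratio none of the tested markers was called, in lists of 8 for hepatocytes, 6 for Kupffer cells, 4 for sinusoidal endothelium, 6 for stellate cells, 4 for cholangiocytes and 4 for lymphocytes. All 6 Kupffer cell markers and all 4 endothelial markers had changes below 0, with medians of -0.27 and -0.47. Their summed Cy5 signals were 16755 to 28465 units in PFOS livers and 19415 to 30852 in control livers for Kupffer cells, and 6739 to 9568 and 9102 to 15895 for endothelium. The summed hepatocyte signal was 786338 to 846804 units in PFOS livers and 862639 to 944452 in control livers. Among its brightest genes, mean log2 Cy5 was 15.1 for Apoa1 and 17.5 for Serpina1 in PFOS livers, and 16.9 and 17.8 in control livers. For Alb and Ttr it was 17.8 and 18.3 in PFOS livers, and 17.7 and 18.2 in control livers. The sum thus holds the Apoa1 signal described below, and its difference without Apoa1 was not tested. The 8 hepatocyte markers did not move together. Their median change was 0.05 in Cy5 alone and -0.11 in the ratio, where 3 of the 8 were above 0. In Cy5 alone Apoa1, an apolipoprotein gene of that list, fell by 1.80 on the log2 scale (limma adjusted p = 0.000145), a larger difference than that of Pex11a, with -0.38 in the ratio (adjusted p = 0.116). Its signal in the reference channel, which carried the same pool on every array, fell too, by 1.38 (adjusted p = 0.0107), and why was not tested. Serpina1 fell by 0.29 in Cy5 (limma adjusted p = 0.0451), with -0.19 in the ratio (adjusted p = 0.265). Tat and Cyp2e1 had Cy5 changes of 0.96 and 0.73 that did not pass the test (adjusted p = 0.0748 and 0.074). In the ratio the changes were 0.84 for Tat and 0.11 for Cyp2e1 (adjusted p = 0.108 and 0.697). In the reference channel they were 0.13 and 0.57 (adjusted p = 0.999 and 0.803). The 4 cholangiocyte markers all had changes above 0, with a median of 0.10 and summed signals of 1148 to 1382 units in PFOS livers and 935 to 1163 in control livers. Summed stellate cell signals were 8258 to 9195 units in PFOS livers and 8415 to 11130 in control livers, and those of lymphocyte markers 701 to 892 and 789 to 875. The part of cell composition in the results was not tested.

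Pex11g encodes the PEX11 form that in cultured mammalian cells helps to gather the fission proteins on the membrane. It had the next largest change among the 9 genes, which did not pass the test. Its log2 ratios were 1.61, 1.59, 1.17 and 1.61 in PFOS livers and 1.29, 1.31, 1.39 and 1.04 in control livers. In 3 PFOS livers the value was above all controls, while PFOS 3 lay within the control range. The change was 0.24 (SE 0.12, 95% confidence interval -0.04 to 0.52, limma adjusted p = 0.327), and in Cy5 alone 0.22 (SE 0.09, adjusted p = 0.205, unadjusted p = 0.035).

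The genes of the fission machinery did not pass the test. Fis1 encodes a tail-anchored adaptor in the outer membrane of mitochondria and in the peroxisomal membrane. For Fis1 the log2 ratios were 1.15, 1.19, 1.16 and 1.07 in PFOS livers and 1.06, 1.07, 0.85 and 1.01 in control livers. The groups did not overlap, but by 0.007 only, and in Cy5 they did overlap. The change was 0.15 (SE 0.08, 95% confidence interval -0.03 to 0.32, limma adjusted p = 0.333).

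Mff encodes the main adaptor that recruits the dynamin-like GTPase in mammalian cells. Its log2 ratios were -0.62, -0.53, -0.57 and -0.73 in PFOS livers and -0.54, -0.48, -0.59 and -0.72 in control livers. The ranges lay almost on top of each other. The change was -0.03 (SE 0.08, 95% confidence interval -0.22 to 0.16, adjusted p = 0.87), and its sign turned when PFOS 4 or control 2 was left out.

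Dnm1l encodes that GTPase, known as DRP1. Log2 ratios of Dnm1l were -0.72, -0.94, -0.77 and -0.74 in PFOS livers and -0.96, -0.71, -1.18 and -0.94 in control livers. Control 2 was the highest of all 8 arrays and control 3 the lowest, so the PFOS range lay inside the control range. The change was 0.15 (SE 0.11, 95% confidence interval -0.09 to 0.39, limma adjusted p = 0.47). Mff and Dnm1l were the 2 genes of the 9 with ratios below 0 on all 8 arrays, while the other 7 were above 0 on all 8.

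None of the genes of membrane protein assembly passed the test. Pex19 encodes the cytosolic receptor that binds newly made membrane proteins. Its brightest probe had log2 ratios of 0.14, 0.18, 0.43 and 0.38 in PFOS livers and 0.44, 0.41, 0.35 and 0.13 in control livers. Both groups had values at either end of the range, and the change was -0.05 (SE 0.10, 95% confidence interval -0.28 to 0.18, limma adjusted p = 0.822). The other 3 Pex19 probes had changes of 0.07, 0.18 and 0.06, none of which passed the test (adjusted p = 0.739, 0.404 and 0.797 over all kept probes). So the sign of the small Pex19 difference depended on the probe, and the mean of its 4 probes gave 0.07. In the first slide row the brightest probe gave -0.27 and in the second 0.16 (adjusted p = 0.468 and 0.633), and in Cy5 alone -0.35 and 0.15.

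Pex3 encodes the membrane anchor on which PEX19 docks. Its probe is printed 10 times on each array, which gives the spread between spots beside that between rats. The log2 ratios were 1.14, 1.03, 1.103 and 1.16 in PFOS livers and 0.79, 1.15, 1.15 and 1.14 in control livers. Control 1 lay apart from the other 7 arrays, which were between 1.03 and 1.16. Within an array the SD between single spots was 0.076 to 0.163. The SD between array means was 0.060 for PFOS and 0.178 for control. A mean over spots varies less than a single spot, so these SDs are not directly comparable. The change was 0.05 (SE 0.10, 95% confidence interval -0.17 to 0.27, limma adjusted p = 0.815), and without control 1 it was -0.04.

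Pex16 encodes a membrane protein that acts with PEX3 in the early steps of assembly. The 4 PFOS livers had log2 ratios of 2.13, 2.004, 2.27 and 2.21, and the control livers 2.24, 1.98, 2.19 and 2.01. The groups overlapped over nearly their whole range. The change was 0.05 (SE 0.09, 95% confidence interval -0.17 to 0.26, limma adjusted p = 0.824). In the reference channel the Pex16 groups did not overlap, by 0.005, as for 2.39% of all features there, with a change of 0.05 (adjusted p = 0.999).

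Pex5 encodes the receptor that brings enzymes with the C-terminal targeting signal to the peroxisome. Its brightest probe, also with 10 spots, had log2 ratios of 1.96, 2.19, 2.29 and 2.17 in PFOS livers and 2.14, 2.10, 2.16 and 1.97 in control livers. PFOS 1 was the lowest array and the other 3 PFOS arrays the highest 3, so the groups crossed. The SD between single spots of an array was 0.093 to 0.221. The SD between array means, again not directly comparable, was 0.139 for PFOS and 0.082 for control. The change was 0.06 (SE 0.09, 95% confidence interval -0.14 to 0.27, adjusted p = 0.747), and the other Pex5 probe gave -0.05 (SE 0.14, adjusted p = 0.881 over all kept probes).

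**Figure D2:**
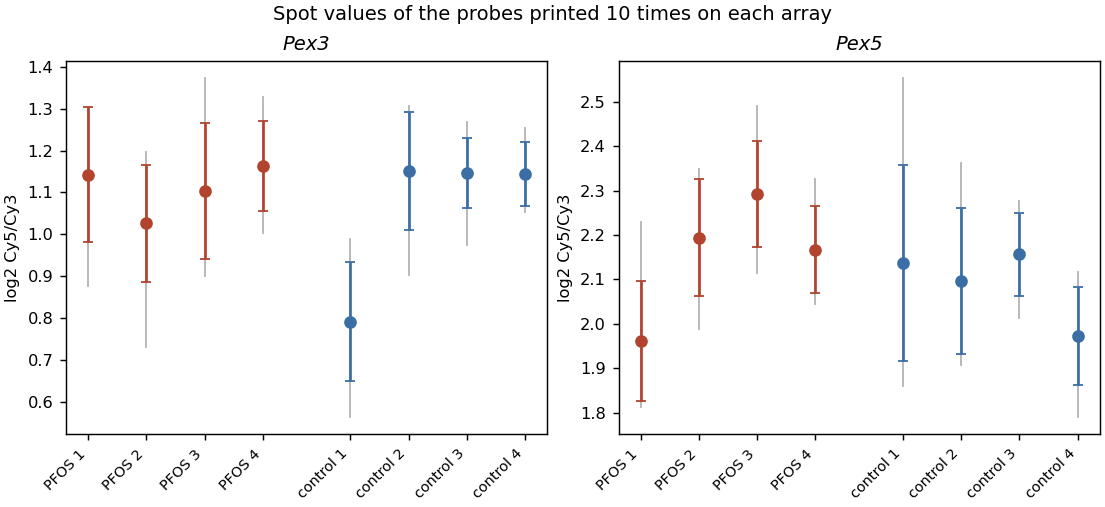
Log2 ratio (y axis) of the Pex3 and Pex5 probes that are printed 10 times, per array, PFOS (red) left of control (blue). Points are means over spots, coloured whiskers the SD between spots and grey lines the lowest and highest spot; 8 to 10 spots were used after outlier spots were left out. Control 1 of Pex3, at 0.79, lies below the other 7 arrays.

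For the 8 genes other than Pex11a, the 95% confidence intervals of the ratio change ran from -0.28 to 0.52 in all. At the brightest probe of each, a rise above 1.43-fold or a fall beyond 1.22-fold thus lay outside every one of these ratio intervals. The ratio interval of the other Pex5 probe reached down to -0.37. In Cy5 alone the intervals of the 8 genes ran from -0.35 to 0.43. Their adjusted p lay between 0.327 and 0.87 in the ratio and between 0.205 and 0.828 in Cy5. A p above the threshold does not show that these genes were equal in both groups.

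**Figure D3:**
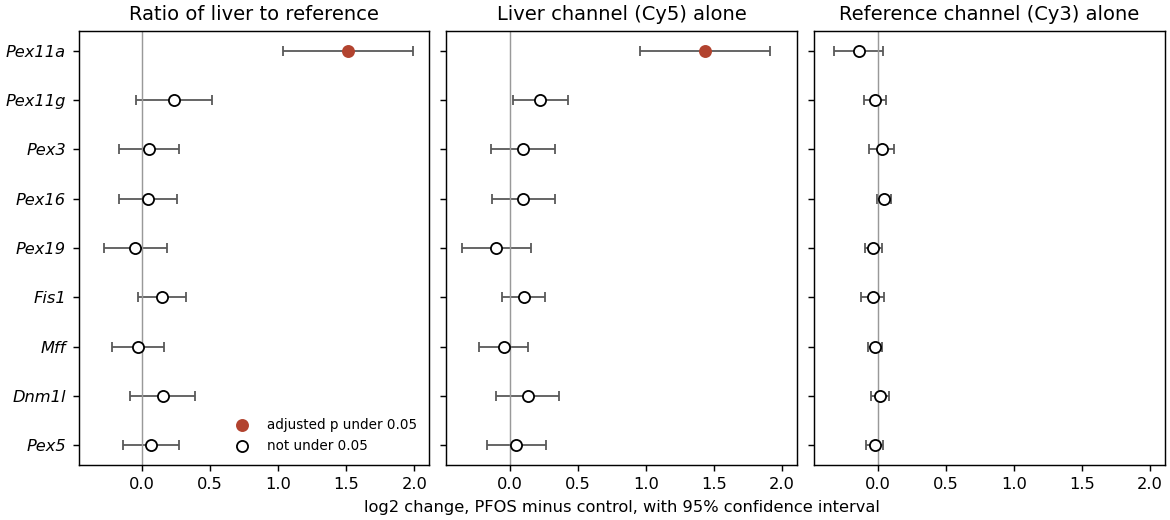
Log2 change, PFOS minus control (x axis), of the 9 genes with its 95% confidence interval, in the ratio, in Cy5 alone and in Cy3 alone. Filled points had an adjusted p under 0.05. Pex11a, at 1.51 and 1.43, is the filled point of the first 2 panels, and the third panel has none.

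The wider peroxisome genes, and mitochondrial genes beside them, were described with 7 other lists, of which 63 genes were tested. The 63 include the 7 and 8 tested genes of the mitochondrial lists, none of which was called. In the ratio 1 of the 63 rose, 1 fell and 61 did not pass the test, with a median change of 0.04. In Cy5 alone 3 rose and none fell. These calls are 3.17% of the 63 in the ratio and 4.76% in Cy5, close to the 3.96% and 4.68% of all features.

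Among 8 membrane channels and transporters, 1 rose in the ratio. Abcd3 encodes PMP70, the transporter of the peroxisomal membrane that takes up acyl-CoA esters. Its log2 ratios were 3.92, 3.63, 3.84 and 3.95 in PFOS livers, all above 3.22, 3.26, 3.15 and 3.18 in control livers. The change was 0.63 (SE 0.09), or 1.55-fold, with a limma adjusted p of 0.00583, and in Cy5 alone 0.49 (adjusted p = 0.0126). Slc27a2, a very long chain acyl-CoA synthetase that also takes up fatty acids, rose in Cy5 alone by 0.61 (adjusted p = 0.00345), with 0.47 in the ratio (adjusted p = 0.0875). Tmem135, a membrane protein of peroxisomes and mitochondria, had a ratio change of -0.50 that did not pass the test (adjusted p = 0.0875). The median of the list was 0.21. Within either slide row alone neither Abcd3 nor Slc27a2 was called, and the Cy5 call of Abcd3 was also lost with slide column as a block.

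Among 16 matrix enzymes outside beta-oxidation, 1 fell in the ratio. Hao1, which encodes the glycolate oxidase of hepatocytes, had log2 ratios of 6.97, 6.71, 6.89 and 7.08 in PFOS livers and 7.42, 7.33, 7.26 and 7.46 in control livers. The groups did not overlap, and the change was -0.45 (SE 0.10, limma adjusted p = 0.0375). In Cy5 alone it was -0.30 and did not pass the test (adjusted p = 0.125). The ratio call was kept in 5 of 22 other settings and was lost without any single array except PFOS 4, with changes of -0.51 to -0.39 when 1 array was left out. Hacl1, a lyase of branched fatty acid breakdown, had a larger change of 1.12 that did not pass the test (SE 0.29, adjusted p = 0.0721), and its ratios averaged 4.59 ± 0.52 in PFOS livers and 3.47 ± 0.48 in control livers (SD, n = 4 each). The Hacl1 ratio change was 1.74 within the first slide row and 0.51 within the second. It passed the test in 1 of 22 other settings of the ratio, slide column as a block (limma adjusted p = 0.0489). In Cy5 alone Hacl1 passed in 1 of 18 other settings (adjusted p = 0.0292). Prdx5, a peroxiredoxin, had a ratio change of 0.18 (adjusted p = 0.24), which did not pass it either.

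None of 8 tested genes of the matrix import machinery was called in the ratio. Pex7 encodes the receptor of the N-terminal targeting signal, the counterpart of PEX5. Its ratio change was 0.30 (SE 0.08, limma adjusted p = 0.0791), and in Cy5 alone it rose by 0.35 (adjusted p = 0.0396), a call kept in 4 of 18 other settings. That call was lost without any single array except control 1, with Cy5 changes that stayed between 0.31 and 0.41. Pex13, a docking protein of the import pore, had a ratio change of -0.36 (adjusted p = 0.12).

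The remaining lists had no call in the ratio or in Cy5 alone. Of 8 other division and contact-site genes, Acbd4, a tether to the endoplasmic reticulum, had a ratio change of -0.39 (limma adjusted p = 0.211), and Mtfp1, a mitochondrial fission factor, -0.17 (adjusted p = 0.391). Of 8 genes of turnover and quality control, the changes were 0.31 for the matrix protease gene Tysnd1, 0.19 for the ubiquitin ligase gene Trim37 and 0.27 for the autophagy receptor gene Sqstm1 (adjusted p = 0.0864, 0.287 and 0.358). Mitochondria share the fission proteins, so 2 mitochondrial lists were read beside them. Of 7 genes of mitochondrial fusion and membrane remodelling, Immt had a change of 0.36, Oma1 of 0.31 and Chchd3 of -0.14, and of 8 markers of mitochondrial mass, Vdac1 had 0.21, Vdac2 0.19 and Tomm20 0.14, and none passed the test. The medians of these 2 lists were -0.0017 and 0.10.

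**Figure D4:**
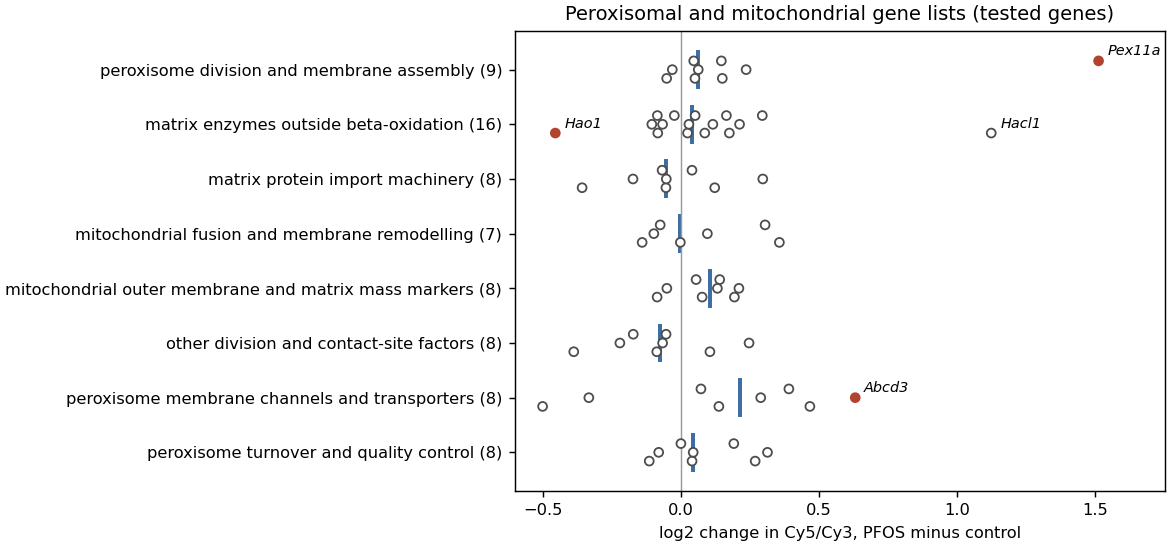
Log2 change of the ratio, PFOS minus control (x axis), of each tested gene of the 9 genes and of 7 other lists, with the number of tested genes in brackets; blue bars are medians and filled points had an adjusted p under 0.05. Pex11a at 1.51, Abcd3 at 0.63 and Hao1 at -0.45 are the filled points.

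The 5 genes whose log2 ratios, each minus its own control mean, lay closest to those of Pex11a over the 8 arrays were Acaa1b, Mme, Cryl1, Hsdl2 and Acot3. Their root mean square distances from Pex11a were 0.224, 0.239, 0.255, 0.260 and 0.265 on the log2 scale. The changes were 1.65 for Acaa1b, a peroxisomal thiolase, 1.27 for Mme, the membrane peptidase neprilysin, and 1.29 for Cryl1, a cytosolic gulonate dehydrogenase. They were 1.41 for Hsdl2, a peroxisomal protein of the short-chain dehydrogenase family, and 1.40 for Acot3, a peroxisomal acyl-CoA thioesterase. All 5 were chosen for this likeness, so their changes are a description. Acaa1b and Acot3 belong to families with near-identical copies, and a probe may read more than 1 of them. On PFOS 4 both Pex11a and Acaa1b had their lowest PFOS value, as did Mme, Cryl1 and Hsdl2, while Acot3 had its lowest on PFOS 1. The Mme probe is dim in Cy5, and its change was 2.04 with a background offset of 0 and 2.90 with the processed signals of the scanner software. In the first slide row the changes of all 5 lay between 1.47 and 1.89. Only Acaa1b passed the test there (limma adjusted p = 0.0103, and 0.0717 to 0.132 for the others). In the second slide row they lay between 0.87 and 1.41, and none passed the test (limma adjusted p = 0.0917 to 0.287).

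**Figure D5:**
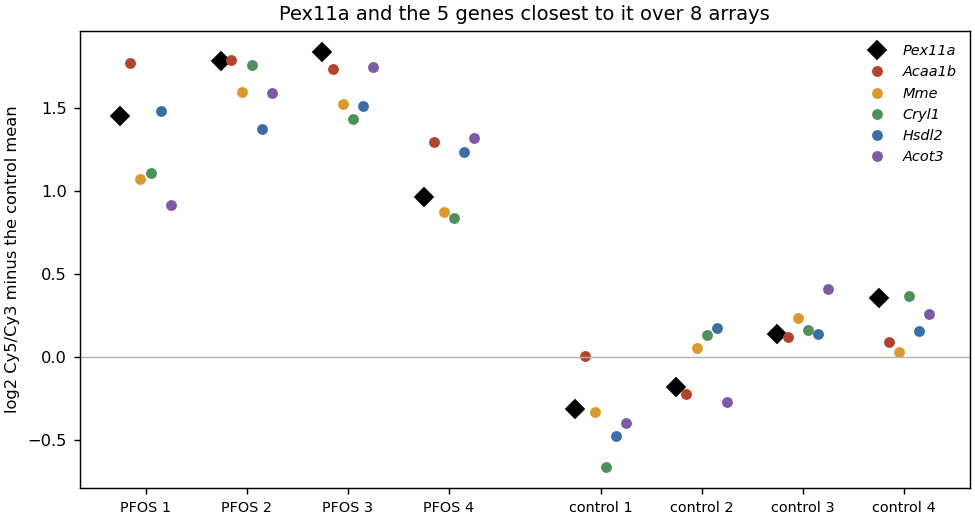
Log2 ratio minus the gene's own control mean (y axis) on each of the 8 arrays (x axis), for Pex11a (black diamonds) and the 5 genes closest to it (circles). All 6 genes lie between 0.84 and 1.84 on the PFOS arrays and between -0.66 and 0.41 on the control arrays.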

How the data were processed

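The authors deposited spot intensity values in both colours, which Agilent Feature Extraction 10.7.3.1 had read (per the submitters' processing notes). A value table that the authors deposited gives log2 ratios, and no source used here states its method. Its columns followed loess-normalized log2 Cy5/Cy3 ratios without background subtraction (r of 0.995 to 0.997), which settles scale and direction but not centring (medians of -0.061 to -0.048). Spot flags and probe accessions, of other units, were used as deposited, per the file headers.

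Median signals were used because the columns hold no mean signals, which the plan had named. Background was corrected with normexp at offset 50. Loess was run within each array, control spots having weight 0. Outlier spots were dropped, and a probe took the mean of its spots. A probe entered the tests if 4 or more of the 8 arrays had it well above background in Cy5, and the brightest probe of a gene stood for it. Cy5 and Cy3 alone were normexp-corrected and quantile normalized. Groups were tested with limma 3.58.1 (lmFit, eBayes) in R 4.3.3, two-sided, with Benjamini-Hochberg adjustment over 15204 features and a threshold of 0.05. The steps were tested on simulated data. Besides that choice of the brightest probe, Cy5 signals of different probes were summed for each marker list. Marker levels and the signs of ratios were also set side by side. No test compared levels between probes.

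The genes and lists were chosen with earlier results of these data known. Named genes are the 9 genes and all their probes, the 3 genes of smallest ratio p in each other list, and the 5 closest to Pex11a; the cell type markers named were chosen after their values were seen. Results withheld for evaluation are not reported here. Groups and separate animals come from the labels, and replicate numbers follow accession order. Alternatives covered background, normalization, scaling, filters, probe choice, the authors' table, eBayes options, slide position as a block, and the omission of single arrays. Each slide row on its own was an alternative chosen after seeing the data.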

Additional observations from a re-analysis of the deposited data

Results flagged for a closer look

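In 4 of 54 groups of 4 arrays, over 9 genes, 3 readings and both groups, 1 array lay far from the others by Dixon's gap test, where chance gives about 2.7. Pex11a in Cy3 was 10.38 on PFOS 2, against 10.71 to 10.77 on the other PFOS arrays. Pex11g had a log2 ratio of 1.17 on PFOS 3, against 1.59 to 1.61 on the other PFOS arrays. Pex3 had a log2 ratio of 0.79 on control 1, against 1.14 to 1.15 on the other control arrays. Pex5 in Cy3 was 10.09 on PFOS 2, against 10.03 to 10.04 on the other PFOS arrays. Without PFOS 2 the Pex11a ratio change was 1.42, and it still passed the test.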

How the results depend on the processing

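No paired analysis was possible by replicate number because these follow accession order and pair no animals. Each slide column held 1 PFOS and 1 control array, and with slide column as a block Pex11a changed by 1.51 in the ratio and 1.43 in Cy5 (limma adjusted p = 0.027 and 0.02). Pex11a was called in 21 of 22 other settings of the ratio (changes of 1.15 to 1.87) and in 17 of 18 of Cy5 (1.16 to 1.70), and leaving out 1 array gave 1.40 to 1.69 and 1.28 to 1.60. With the second slide row alone the count of the 9 genes called was 0 in both, where fewer arrays enter the fit. None of the other 8 genes was called in any setting.

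The count of features called in the ratio, 602, was 239 with median centring, 268 with slide column as a block, 92 and 29 within the first and second slide rows, and 350 to 520 with 1 array left out, lowest without control 1. The Cy5 count, 712, was 413 with 75th percentile scaling, 455 with slide column as a block, 112 and 31 within the slide rows, and 413 to 685 with 1 array left out, lowest without PFOS 1. The 2 calls among the other lists in the ratio became 1 with the authors' value table, eBayes with trend and robust options, median centring, normexp with offset 0 or scaling between arrays, 0 within each slide row, 1 to 2 with 1 array left out and 3 with processed signals. The 3 in Cy5 became 2 with 75th percentile scaling, loess and Aquantile, the processed signal or either slide position as a block, 2 to 4 with 1 array left out (4 without control 1) and 0 within each slide row. Why these counts moved was not tested. Fewer arrays enter the fits within a slide row or with 1 array left out.

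Small changes turned sign. In the second slide row the ratio changes were 0.0039 for Mff, 0.164 for Pex19 and -0.011 for Pex3, and the Cy5 changes 0.0061 for Mff and 0.152 for Pex19. In the first they were -0.043 for Pex16 and -0.039 for Pex5, and in Cy5 -0.00051 and -0.052. The mean of its probes gave Pex19 0.066. With 1 array left out, Mff ranged from -0.078 to 0.0094 in the ratio, and Pex3 from -0.038 to 0.082 in the ratio and from -0.0026 to 0.150 in Cy5.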
